A study of Homo sapiens with 12 samples.

Results

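BCL3, LCN2, IRF1, MCL1, BCL2L1, CCND1, PIM1, VEGFA, BIRC5 and HIF1A are 10 STAT3 effector target genes, taken here from 20090 protein-coding genes because they are known to be switched on by STAT3. They were followed in ChIP-exo peak lists from DCIS.com, a human breast cancer cell line of basal type that is used as a model of ductal carcinoma in situ. Each gene was given a window of its gene body with 20 kb on each side in hg19, and every listed peak pair with its midpoint in the window was counted as belonging to it. A peak pair is the pair of exonuclease borders, 1 on each strand, that ChIP-exo leaves round a crosslinked protein.

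STAT3 is a transcription factor that is activated downstream of cytokine receptors such as those for IL-6, enters the nucleus and binds paired half-sites with the consensus TTCNNNGAA. Its targets carry out what STAT3 signalling is known for in carcinoma cells: survival (MCL1, BCL2L1, BIRC5), cell division (CCND1, PIM1), blood vessel growth and the response to low oxygen (VEGFA, HIF1A), and the control of inflammatory transcription (BCL3, IRF1), with the secreted lipocalin LCN2 as a marker of its activity. BCL9 is best known as the protein that joins β-catenin to Pygopus in Wnt signalling. The comparison asked whether BCL9 and serine-phosphorylated STAT3 (pSTAT3, labelled pS727STAT3) were found at the same places of these genes, and whether this differed when BCL9 was knocked down.

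The control cells carried a non-silencing vector (labelled Non-scrambled control) and the knockdown cells an shRNA against BCL9 (labelled BCL9-knock down), in both cases from a pLKO.1 lentiviral construct and with 1 shRNA sequence. There were 3 control libraries each for pSTAT3 and BCL9, 2 knockdown libraries each, and 1 control CTCF library, and the labels number them as biological replicates without saying more of their cultures. CTCF, which binds chromatin loop anchors, is the positive control of the labels, and the IgG library was not analysed here. Peak lists cannot show how much BCL9 protein the knockdown cells still held.

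The lists held 24728 to 493174 peak pairs, and the windows of the 10 genes took 0.0735% to 0.09% of each pSTAT3 list, 0.0737% to 0.17% of each BCL9 list and 0.0637% of the CTCF list. Going by the run numbers in the names of the deposited lists, control pSTAT3 replicate 1 and control BCL9 replicate 1 came from 1 sequencing run and the others from 3. Because of the unequal lengths, counts are given as a density, the number of peak pairs per 100000 listed pairs and per 100 kb of window, which averages 3.29 over the genome in every list. A density can still depend on list length. In control BCL9 lists of 24728, 28690 and 148755 pairs it was 85.0, 53.3 and 38.5 at BCL3. Some comparisons are therefore also given at equal list length. Each pair also has a rank in its list by signal (1 is the strongest) and a number of tags. Depth in reads is unknown, a rank depends on the length of its list, and tags are not scaled between libraries. For basal breast epithelium, 7 of 8 marker genes (LAMB3 and TP63 among them) had a region of both antibodies in their window in control cells. For other tissues 2 of 12 did (PTPRC and GFAP, with 0 regions of both antibodies at INS), beside 19.4% of all genes.

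The sequences under the strongest sites show that few of them carry a STAT string. The first group holds sites where the best-ranked control pSTAT3 region of the gene lies, and the −6546 bp site of BCL3, added after its values were seen because it held the best-ranked BCL9 pair of the 10 genes. The bases printed lie round a control pSTAT3 pair. The best knockdown BCL9 pairs of the −6546 bp site (midpoints 45245341 and 45245315) lay outside them. At the other BCL3 site the best pairs of control pSTAT3 replicates 2 and 3 (midpoints 45277604 and 45277555) did so too. The plus strand of GRCh37 (hg19) is printed, and capitals mark a STAT (TTCNNNGAA), AP-1 (TGANTCA), C/EBP (TTGCNCAA) or TEAD (GGAATG) string on either strand.
BCL3, 25789 bp downstream of its start site, chr19:45277704-45277803: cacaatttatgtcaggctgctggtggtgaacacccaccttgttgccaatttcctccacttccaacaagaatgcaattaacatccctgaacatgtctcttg
BCL3, 6546 bp upstream, chr19:45245369-45245468: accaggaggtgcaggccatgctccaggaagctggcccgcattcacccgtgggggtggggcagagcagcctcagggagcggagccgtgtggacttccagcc
LCN2, at the promoter, 26 bases only, chr9:130911580-130911605: ccctctgtcTTGCCCAAtcctgacca
VEGFA, 28839 bp downstream, chr6:43766737-43766836: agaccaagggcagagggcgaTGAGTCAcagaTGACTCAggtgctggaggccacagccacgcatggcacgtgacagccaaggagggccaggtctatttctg
HIF1A, 59866 bp downstream, chr14:62222047-62222146: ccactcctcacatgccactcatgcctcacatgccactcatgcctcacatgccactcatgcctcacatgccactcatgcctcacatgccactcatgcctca
The VEGFA site held 2 AP-1 strings side by side, the LCN2 promoter a C/EBP string in the piece shown and a TEAD string outside it. The bases printed for both BCL3 sites held none of the strings searched, and the rest of those BCL3 regions was not searched. The HIF1A site is a tandem repeat: 96.3% of its bases equal the base 18 positions further on, against at most 43.6% at any period from 3 to 40 in the other named sites of the 10 genes. How reads were placed in repeats is not stated by the study, and the part of the repeat in the HIF1A values was not tested.

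The second group holds the 3 control pSTAT3 regions of the 10 genes whose 100 bp window has a STAT string, each as 26 bases round it with the string in capitals.
IRF1, 119 bp upstream of its start site, chr5:131826571-131826596: gtgccgtcatTTCGGGGAAatcaggc
BCL3, 5906 bp downstream in an intron, chr19:45257858-45257883: cctggacggtTTCTCTGAAatcattc
MCL1, 17436 bp downstream, chr1:150534637-150534662: ctcccagcgaTTCCTGGAAgcccaga
The IRF1 string lies in the promoter that is known for its response to STAT signalling. Tags of the strongest pair there were 5, 0 and 9 in the control pSTAT3 libraries and 15 and 9 in the knockdown ones, with 0 in every control BCL9 library and 0 and 5 in the knockdown BCL9 libraries. At the BCL3 intron site they were 8, 7 and 21 in control and 29 and 15 in knockdown pSTAT3 libraries, against 0, 0 and 10 and then 0 and 6 for BCL9. Both sites were thus found with pSTAT3 in most or all of its libraries and with BCL9 in few, but the BCL9 lists are shorter on the whole. In control pSTAT3 libraries the pairs ranked 65282 and 77683 at IRF1 and 32365, 44081 and 20064 at BCL3. The lists of control BCL9 replicates 1 and 2 held 28690 and 24728 pairs in all. Whether BCL9 was absent from these sites was not tested. The MCL1 site is described with the survival genes.

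Over the 10 genes, pSTAT3 was densest at BCL3, MCL1 and LCN2 and close to the genome mean at BIRC5, CCND1 and PIM1. The mean pSTAT3 density over the 5 libraries of both conditions was 40.1 ± 9.98 (SD, n = 5) at BCL3, 21.2 ± 6.07 at MCL1, 13.4 ± 4.34 at LCN2, 11.6 ± 2.97 at HIF1A, 10.1 ± 0.597 at IRF1, 9.61 ± 3.95 at BCL2L1, 8.69 ± 2.25 at VEGFA, 4.51 ± 2.26 at BIRC5, 3.4 ± 0.324 at CCND1 and 2.19 ± 2.03 at PIM1. In this order only BCL3 and MCL1 are neighbours whose ranges over the libraries did not overlap. For BCL9 the order was BCL3 (51.0 ± 24.0), MCL1 (28.0 ± 16.0), LCN2 (27.9 ± 16.9), BCL2L1 (17.9 ± 11.4), IRF1 (14.2 ± 7.05), HIF1A (9.7 ± 3.67), VEGFA (4.55 ± 2.8), BIRC5 (4.24 ± 3.52), CCND1 (1.96 ± 2.11) and PIM1 (1.55 ± 2.16), and the ranges of all neighbours overlapped. The median over all genes was 3.17 for pSTAT3 and 2.58 for BCL9.

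**Figure D1:**
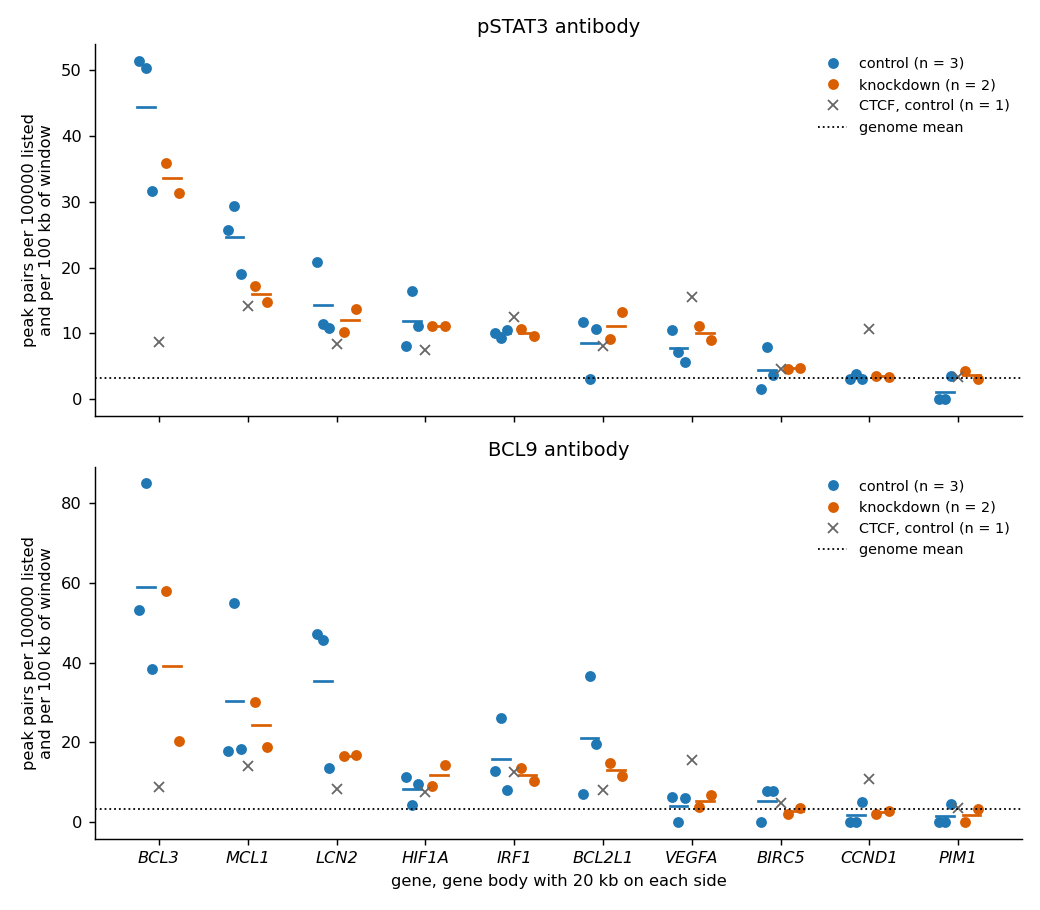
Peak-pair density in the windows of the 10 genes (vertical axis, peak pairs per 100000 listed and per 100 kb of window) for the pSTAT3 (top) and BCL9 (bottom) antibodies. Points are libraries, short lines group means, crosses the CTCF library and the dotted line the genome mean of 3.29; BCL3 stands highest for both antibodies and PIM1 lowest.

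CTCF had another order, with densities of 15.5 at VEGFA, 14.1 at MCL1, 12.5 at IRF1, 10.7 at CCND1, 8.78 at BCL3, 8.38 at LCN2, 8.13 at BCL2L1, 7.55 at HIF1A, 4.68 at BIRC5 and 3.38 at PIM1. A gene can also lie in a stretch that is dense as a whole, so each window was set beside the 480 kb on either side of it. The pSTAT3 density of the window was 5.76 times that of the surroundings at BCL3, 2.86 times at BCL2L1, 2.81 times at LCN2, 2.71 times at MCL1 and 1.27 times at IRF1. It was 1.07 times at VEGFA and 1.01 times at HIF1A, about as dense as the neighbourhood, and 0.491 times at CCND1, 0.424 times at BIRC5 and 0.275 times at PIM1. For CTCF the ratio at BCL3 was 1.04.

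In control cells, 6 of the 10 genes had a shared region, which is a pSTAT3 region found in at least 2 of 3 libraries that overlaps a BCL9 region found in at least 2 of 3. These were BCL3 and MCL1 with 4 regions each, IRF1 and BCL2L1 with 2 each, and LCN2 and VEGFA with 1 each, and 19.4% of all genes had one. A control pSTAT3 region of any kind was present for 8 of 10 genes (57.6% of all genes) and a control BCL9 region for 7 of 10 (27.3%). In knockdown cells, with regions found in both libraries, 10 of 10 genes had a pSTAT3 region (72.4% of all genes) and 7 of 10 a BCL9 region (43.3%). There 7 of 10 genes had a shared region (30.0% of all genes), CCND1 and HIF1A having 1 each and VEGFA none. The control count fell to 4 of 10 (11.5% of all genes) without the 2 libraries from 1 sequencing run, where BCL2L1 and VEGFA dropped out, to 3 of 10 with regions required in all 3 libraries (7.63%), and to 2 of 10, BCL3 and LCN2, when each list was cut to its 24728 strongest pairs (8.74%).

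**Figure D2:**
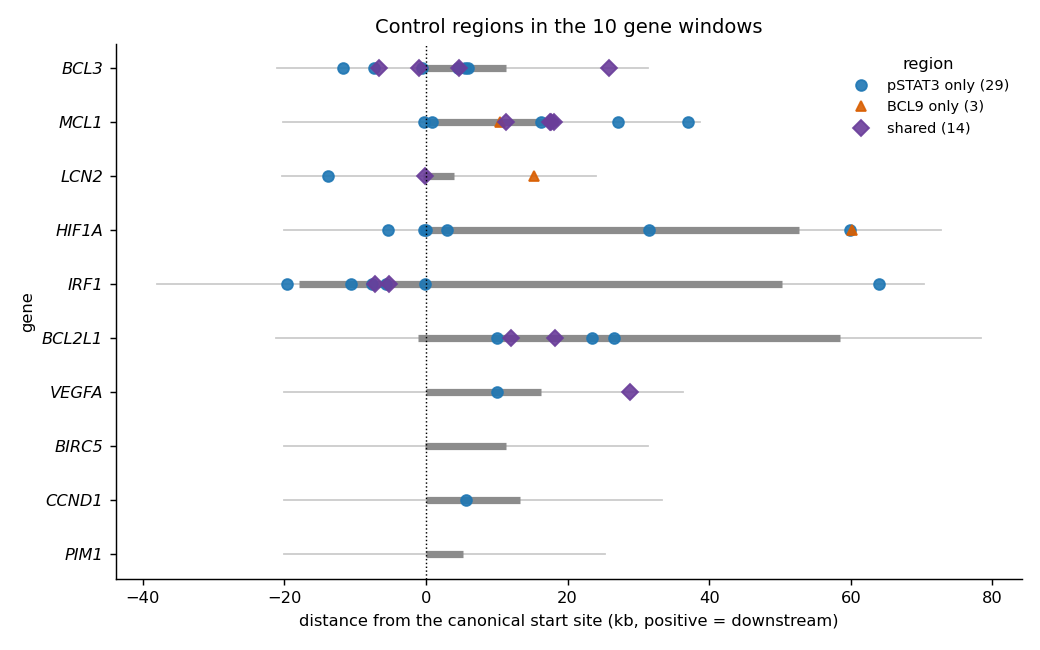
Control regions in the windows of the 10 genes by distance from the canonical start site in kb (horizontal axis). Thick grey bars are gene bodies, thin lines the windows, circles regions of pSTAT3 only (29), triangles of BCL9 only (3) and diamonds shared regions (14); BIRC5 and PIM1 have none.

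The windows held 43 control pSTAT3 regions in all, of which 14 were shared (23.1% of the pSTAT3 regions of the whole genome were). Of the 14, 3 lay within 1 kb of a start site of the gene itself and 11 did not. All 14 had a window in both knockdown pSTAT3 libraries (93.6% of the shared regions of the genome did) and thus 0 in neither (0.972%), while 12 of 14 had one in both knockdown BCL9 libraries (75.4%). Of the 29 regions with pSTAT3 only, 17 had a window in both knockdown pSTAT3 libraries (68.4% over the genome) and 8 in neither (13.8%), and 5 had one in both knockdown BCL9 libraries (22.4%). A CTCF window lay in 8 of the 14 shared regions (22.9% over the genome) and in 6 of the 29 others (15.7%). In those 8 the strongest CTCF pair was weak, with 4 to 19 tags and a rank of 124338 or worse among 457119 pairs. The minimum of that list is 3 tags. In the 6 others it had 4 to 84 tags.

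BCL3, an atypical IκB protein that works with NF-κB dimers in the nucleus, was the most densely occupied of the 10 genes. Its pSTAT3 densities were 51.4, 50.3 and 31.7 in control and 35.9 and 31.4 in knockdown libraries, at the 99.8th percentile of all genes on average. Its BCL9 densities were 53.3, 85.0 and 38.5 in control and 58.0 and 20.4 in knockdown libraries, so the conditions overlapped for both antibodies. The site 25789 bp downstream of the BCL3 start, between genes at chr19:45277464-45278036, had the best control pSTAT3 ranks of the window, with 30, 19 and 51 tags in control and 45 and 96 in knockdown pSTAT3 libraries. The same site had 17, 14 and 38 tags in control and 18 and 15 in knockdown BCL9 libraries and 0 for CTCF. It lies 3372 bp upstream of a start site of CBLC, a neighbouring ubiquitin ligase gene, and so is nearer to that gene than to BCL3.

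The BCL3 site 6546 bp upstream of the start (chr19:45245138-45245535) was in all 10 libraries of both antibodies and had 0 CTCF tags. For BCL9 its strongest pair had 8, 13 and 53 tags in control and 67 and 70 in knockdown libraries, where it ranked 94 and 68 of the list. For pSTAT3 it had 18, 11 and 34 tags in control and 51 and 55 in knockdown libraries. Taking the best rank anywhere in the BCL3 window, BCL9 stood at 489, 1600 and 405 in control and 94 and 68 in knockdown libraries, and the groups did not overlap (exact two-sided permutation p = 0.1, the smallest that 2 against 3 libraries allow). By this measure 4.04% of all genes had a better rank in every knockdown BCL9 library than in every control library. In 2 of the 3 control libraries that best pair lay at another BCL3 site. Further shared regions lay 980 bp upstream, with 7, 8 and 16 pSTAT3 tags and 5, 0 and 11 BCL9 tags in control libraries, and 4707 bp downstream in an intron, with 6, 6 and 30 pSTAT3 and 8, 21 and 9 BCL9 tags.

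LCN2, a siderophore-binding lipocalin secreted by epithelia and neutrophils, had 1 shared region, and it lay on its promoter. The region (chr9:130911311-130911763, 157 bp upstream of the canonical start and partly in the UTR of a longer transcript) was found in all 10 libraries. It had 14, 12 and 18 pSTAT3 tags in control and 25 and 57 in knockdown libraries, 7, 16 and 29 BCL9 tags in control and 9 and 25 in knockdown libraries, and 4 CTCF tags. LCN2 densities for BCL9 were 47.1, 45.6 and 13.6 in control and 16.5 and 16.7 in knockdown libraries. The first 2 control libraries were thus far above the third, which lay below both knockdown libraries. The best BCL9 rank in the LCN2 window was 3685, 3479 and 2803 in control and 24658 and 4013 in knockdown libraries, which did not overlap (exact p = 0.1), and 3.21% of all genes had a worse rank in every knockdown BCL9 library. These ranks mix sites, since in control replicate 1 and knockdown replicate 1 the best pair lay about 15 kb downstream. As a percentage of the list they were 12.8, 14.1 and 1.88 in control and 25.8 and 1.19 in knockdown libraries, which overlapped. At the promoter region itself BCL9 ranked 7552, 3479 and 2803 in control and 33238 and 4013 in knockdown libraries, which overlapped. For pSTAT3 the best ranks were 11405, 10822 and 26854 in control and 19597 and 2721 in knockdown libraries and overlapped.

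IRF1, a transcription factor of the interferon response, had nearly the same pSTAT3 density in every library: 10.1, 9.36 and 10.6 in control and 10.7 and 9.55 in knockdown cells. Its BCL9 densities were 12.9, 26.1 and 8.07 in control and 13.5 and 10.2 in knockdown cells. The shared region 7152 bp upstream of the canonical start (chr5:131833464-131833720, in an intron of longer IRF1 transcripts) had 9, 17 and 8 pSTAT3 tags and 5, 12 and 29 BCL9 tags in control, and 16 and 13 pSTAT3 and 25 and 21 BCL9 tags in knockdown libraries. Another one 5219 bp upstream had 13, 0 and 8 pSTAT3 and 0, 11 and 8 BCL9 tags in control libraries. IRF1 lies inside the longer gene record ENSG00000283782, so the windows of the pair are not separate.

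MCL1, a BCL2-family protein that holds mitochondria against apoptosis, had the second highest density for both antibodies. Its pSTAT3 densities were 25.7, 29.3 and 19.1 in control and 17.2 and 14.8 in knockdown libraries, and MCL1 was the 1 gene of the 10 at which the conditions did not overlap. The knockdown mean of 16.0 was 0.648 times the control mean of 24.7 (exact two-sided p = 0.2, in a design whose smallest is 0.1). Every knockdown pSTAT3 library was below every control library at 6.95% of all genes and above at 13.2%, where 0 of the 10 genes stood. At 5 kb or 50 kb of flank, at equal list length and with at least 9 tags, the MCL1 densities overlapped. At equal list length the direction was the opposite, with a knockdown mean of 30.9 against a control mean of 16.0.

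The strongest pair of the MCL1 window had a better rank number in both knockdown pSTAT3 lists, which are also the longest. It ranked 7411, 20856 and 13959 in control and 4035 and 1138 in knockdown pSTAT3 libraries (exact p = 0.1), and 2.78% of all genes had better ranks in every knockdown library. At equal list length the MCL1 window held 4, 1 and 2 pairs in control and 4 and 5 in knockdown libraries, which overlapped (exact p = 0.3). The strongest control pairs lay in different regions, while in both knockdown libraries the pair lay in the region with the STAT string (chr1:150534508-150534949), with 47 and 74 tags against 17, 7 and 14 in control libraries. The region had 0 CTCF tags, and for BCL9 it had 0, 0 and 6 tags in control and 0 and 6 in knockdown libraries, so that it counts as shared only through a BCL9 region that reaches into it. It lies in the MCL1 gene record, in an intron of a non-coding transcript, but the nearest protein-coding start is that of ADAMTSL4, at a distance of 10064 bp. A further pair of shared regions, 18152 and 11303 bp downstream of the MCL1 start, had 9, 8 and 25 and then 6, 9 and 21 pSTAT3 tags in control libraries. They had 0, 10 and 10 and then 0, 11 and 10 BCL9 tags, with 19 and 11 CTCF tags.

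BCL2L1, which encodes the survival protein BCL-XL, had its shared regions in an intron, 11969 bp (chr20:30298418-30298812) and 18213 bp (chr20:30292353-30292621) downstream of the canonical start. The first had 5, 9 and 21 BCL9 tags in control and 17 and 31 in knockdown libraries, against 8, 0 and 11 and then 7 and 23 for pSTAT3. The second had 6, 12 and 17 BCL9 tags in control and 16 and 15 in knockdown libraries, against 10, 0 and 9 and then 6 and 16 for pSTAT3. Neither was found in control pSTAT3 replicate 2, where the BCL2L1 density was 3.05 beside 11.8 and 10.7 in the other control libraries. BIRC5, the inhibitor of apoptosis known as survivin, had no control region of either antibody. Its pSTAT3 densities were 1.63, 7.88 and 3.64 in control and 4.68 and 4.73 in knockdown libraries, and the pSTAT3 pair with the best rank number, 563 bp upstream of the start, was in 1 library with 7 tags. In the longer list of control pSTAT3 replicate 3 the strongest BIRC5 pair had 12 tags and lay 14875 bp upstream, and in control BCL9 replicate 3 it had 21 tags and lay 15153 bp upstream.

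The proliferation genes had the fewest pairs. CCND1, the cyclin of the first growth phase, had 2, 2 and 6 pSTAT3 pairs in control and 8 and 9 in knockdown libraries, in lists of 98665 to 493174. Its densities of 3.15, 3.8, 3.01, 3.61 and 3.42 were those of the genome mean. BCL9 pairs at CCND1 numbered 0, 0 and 4 in control and 1 and 5 in knockdown libraries. PIM1, a serine/threonine kinase, had 0, 0 and 6 pSTAT3 pairs in control and 8 and 7 in knockdown libraries, and 0, 0 and 3 BCL9 pairs in control and 0 and 5 in knockdown libraries. The PIM1 site with the best pSTAT3 rank, 2067 bp into the gene, had 81 CTCF tags against 0, 0 and 4 for pSTAT3 in control and 9 and 6 in knockdown libraries. The 0 of the shorter lists do not show that STAT3 was absent from CCND1 or PIM1, since a list holds only pairs above its own minimum of 3 to 9 tags.

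VEGFA, the main growth factor of blood vessels, had 2 control pSTAT3 regions, of which the distant one was shared. The other, in a VEGFA intron 9997 bp downstream of the start (chr6:43747826-43747994), had 4, 0 and 6 pSTAT3 tags in control libraries and 0 in the knockdown and BCL9 ones. The region 28839 bp downstream of the start (chr6:43766580-43766930), the one with the 2 AP-1 strings, had 33, 10 and 38 pSTAT3 tags in control and 39 and 80 in knockdown libraries. For BCL9 it had 5, 0 and 8 tags in control and 0 and 6 in knockdown libraries, and for CTCF 0. It was thus found in all 5 pSTAT3 libraries and in 3 of the 5 BCL9 libraries, whose lists are shorter on the whole. VEGFA densities were 10.5, 7.2, 5.7, 11.1 and 9.0 for pSTAT3 and 6.19, 0.0, 5.97, 3.72 and 6.86 for BCL9, each in the order of 3 control and 2 knockdown libraries.

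HIF1A, the oxygen-regulated subunit of the hypoxia factor, had its best pSTAT3 ranks at the tandem repeat 59866 bp downstream of its start (chr14:62222008-62222214), which is 7041 bp upstream of a start of SNAPC1. Tags there were 37, 19 and 35 in control and 33 and 15 in knockdown pSTAT3 libraries and 0, 0 and 10 and then 0 and 0 for BCL9. As the strongest pair of the HIF1A window it ranked 681, 3733 and 6194 in control and 10497 and 56661 in knockdown libraries, which did not overlap (2.63% of all genes had a worse rank in every knockdown pSTAT3 library). With ranks beyond 24728 set to 24729, as in comparisons of ranks unless stated otherwise, the exact p was 0.2. As a percentage of the list these HIF1A ranks were 0.573, 3.78 and 1.66 in control and 2.53 and 11.5 in knockdown libraries, which overlapped. A region at the HIF1A promoter, 304 bp upstream, had 4, 0 and 9 pSTAT3 tags in control and 17 and 11 in knockdown libraries, with 30 CTCF tags. For BCL9 this promoter region had 0, 0 and 9 tags in control and 11 and 19 in knockdown libraries.

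**Figure D3:**
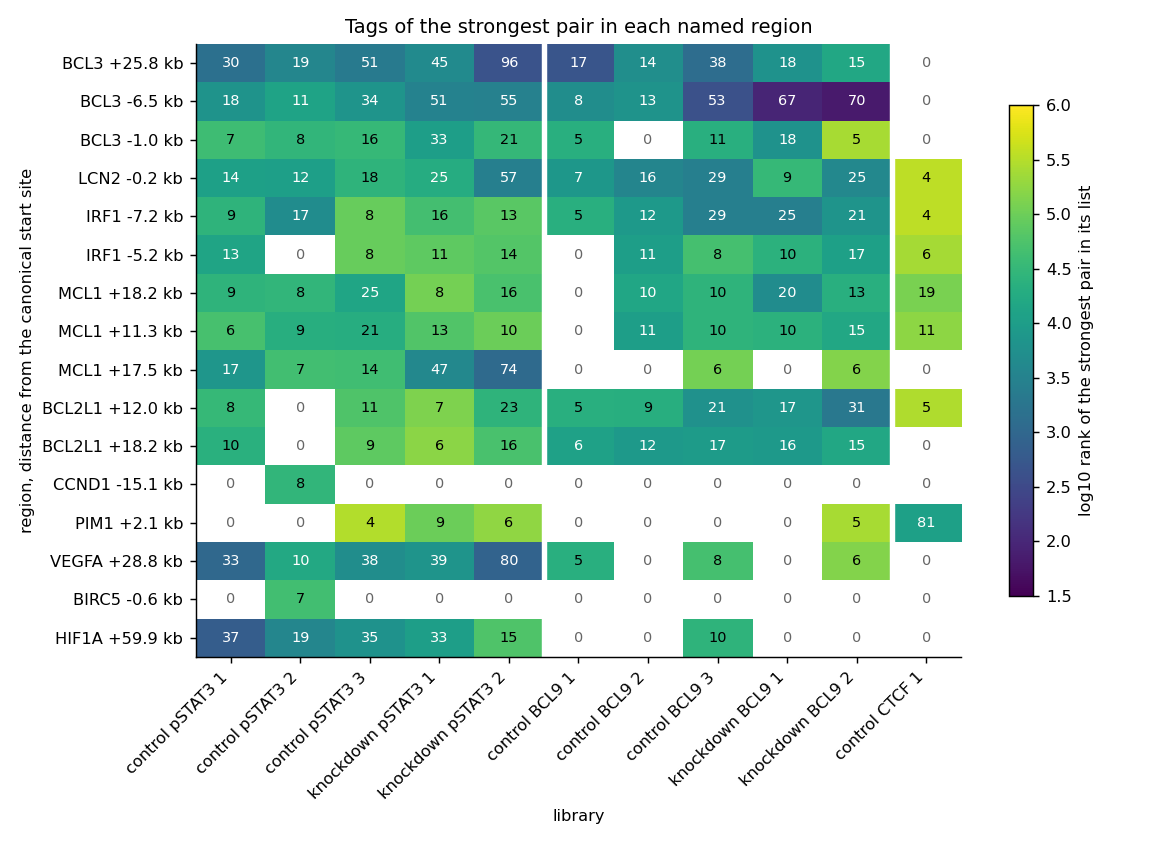
Tags of the strongest pair (numbers) and the log10 of its rank in the list (colour, dark is strong) for the named regions of the 10 genes (rows, with distance from the canonical start) in each library (columns). The BCL3 site 6546 bp upstream has the best BCL9 ranks in knockdown libraries (67 and 70 tags), and the distant VEGFA site and the HIF1A repeat are in all 5 pSTAT3 libraries.

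Between conditions, the densities overlapped at 9 of the 10 genes for pSTAT3 and at 10 of 10 for BCL9. For pSTAT3, 1 of 10 lay lower in every knockdown library (MCL1, beside 6.95% of all genes) and 0 of 10 higher (13.2%). For BCL9 0 of 10 lay higher (18.1%) and 0 of 10 lower (3.93%), and with 10 assignments of the libraries no p can be under 0.1. In BCL9 lists the knockdown mean was below the control mean at 6 of 10 genes, beside 31.7% of all genes (BCL3 39.2 against 58.9, LCN2 16.6 against 35.4) and above at CCND1, PIM1, VEGFA and HIF1A, all within the spread of the libraries. In pSTAT3 lists it was below at 4 of 10 genes, beside 42.2% of all genes. These directions depended on list length. At equal list length the BCL3 mean for BCL9 was higher in knockdown libraries (120.0 against 77.3), while LCN2 stayed lower (31.9 against 42.5). For pSTAT3, BCL3, LCN2 and MCL1 were then higher in knockdown libraries and HIF1A stayed lower. By the rank of the strongest pair, 4 of the 20 comparisons did not overlap. For pSTAT3 the knockdown ranks were better at MCL1 (2.78% of all genes) and worse at HIF1A (2.63%). For BCL9 they were better at BCL3 (4.04%) and worse at LCN2 (3.21%). As a percentage of the list, HIF1A and LCN2 overlapped, while MCL1 and BCL3 did not. Without the cap at 24729, knockdown ranks were also worse at BIRC5 for pSTAT3 and at PIM1 and BIRC5 for BCL9. In that comparison a library with no pair took the rank after the end of its list. PIM1 had no BCL9 pair in control replicates 1 and 2 and knockdown replicate 1, and BIRC5 none in control replicate 1. The PIM1 result thus follows from list lengths and is not a result about PIM1. The share of all genes was not counted without the cap. At equal list length BCL3 alone did not overlap for BCL9, with 8, 11 and 11 pairs in control and 14 and 17 in knockdown libraries (every knockdown library above at 3.05% of all genes). There 0 of 10 lay lower for BCL9 (2.03%), and for pSTAT3 0 of 10 lay higher (2.11%) or lower (2.06%).

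**Figure D4:**
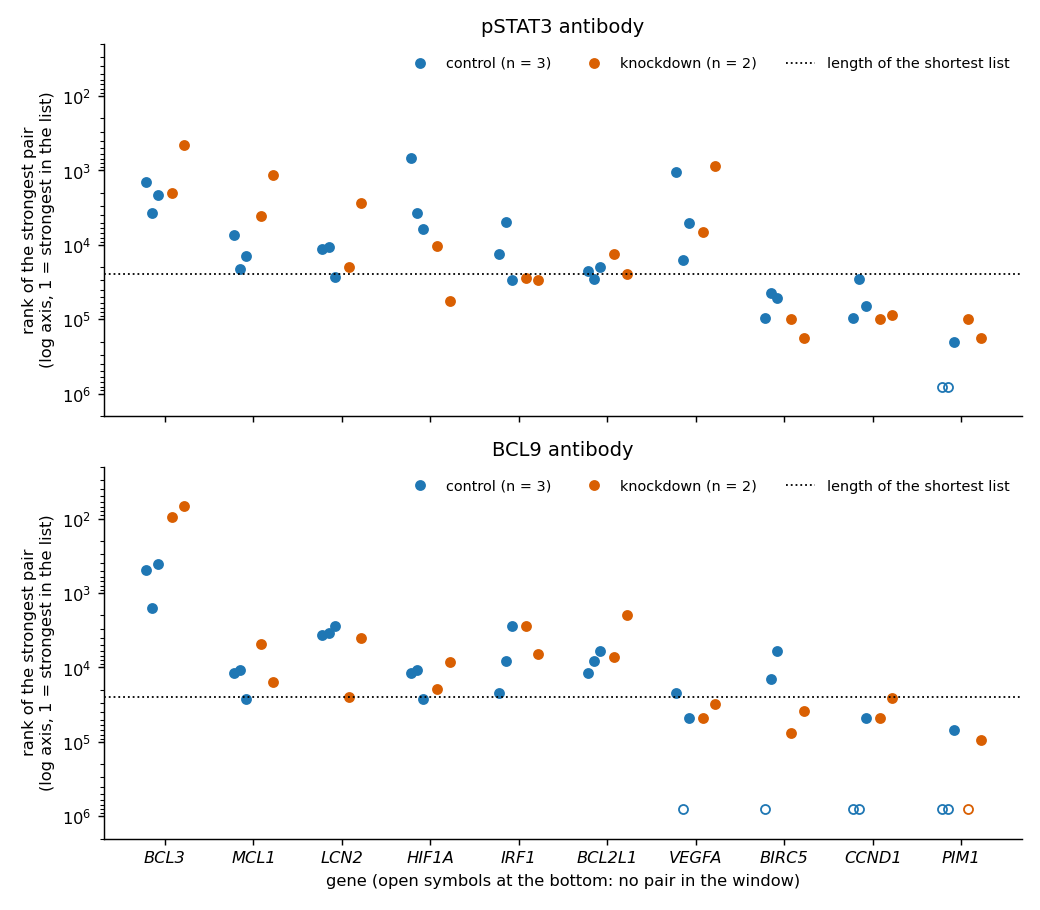
Rank in its list of the strongest peak pair in each gene window (vertical log axis, reversed so that the strongest is at the top) for pSTAT3 (top) and BCL9 (bottom). Filled points are libraries, open points libraries with no pair in the window and the dotted line the length of the shortest list, 24728; knockdown BCL9 libraries stand above control ones at BCL3 (94 and 68 against 405 to 1600).

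Between the antibodies, pSTAT3 was denser than BCL9 at VEGFA and BCL9 had the better rank numbers at BCL2L1, but no gene passed once all genes were counted. The VEGFA density was 8.69 for pSTAT3 and 4.55 for BCL9 (exact two-sided permutation over 5 against 5 libraries, p = 0.0397, Benjamini-Hochberg adjusted over 20090 genes p = 0.377). At 12.5% of all genes the unadjusted p was under 0.05, and 1 of the 10 was among them. With 5 kb of flank, which does not reach the distant VEGFA site, the VEGFA difference was 1.2 (exact p = 0.627). With 50 kb it was 3.35 (exact p = 0.0159), and leaving out 1 library gave an exact p of 0.0159 to 0.0873. By the strongest pair, VEGFA ranked 1048, 16138, 5009, 6777 and 859 for pSTAT3 and 21793 or worse in the BCL9 libraries (exact p = 0.00794, the smallest possible, adjusted 0.158). BCL2L1 ranked 22446, 28912, 20064, 13065 and 24445 for pSTAT3 and 11985, 8152, 5987, 7231 and 1989 for BCL9 (exact p = 0.00794, adjusted 0.158), with the pSTAT3 pairs at several sites. As a percentage of the list these BCL2L1 ranks were 18.9, 29.3, 5.36, 3.14 and 4.96 for pSTAT3 and 41.8, 33.0, 4.03, 7.56 and 0.591 for BCL9, which overlapped. At VEGFA such percentages overlapped as well, at 16.4 in control pSTAT3 replicate 2 and 9.23 in knockdown BCL9 replicate 2. The BCL2L1 density was 9.61 for pSTAT3 and 17.9 for BCL9 (exact p = 0.151), and at equal list length 4.06 and 23.6 (exact p = 0.0317, adjusted 0.428). At equal list length IRF1 (2.99 and 15.7, exact p = 0.0317, adjusted 0.428) and VEGFA (25.9 and 1.44, exact p = 0.00794, adjusted 0.181) were also under 0.05 unadjusted. By that measure 10.8% of all genes were. By the strongest pair BCL3 had an exact p of 0.0476 (adjusted 0.416), with better BCL9 ranks, and 11.4% of all genes were under 0.05 unadjusted. After adjustment 0 of the 10 genes and 0.0% of all genes passed by any of these measures. Since no exact p can be under 0.00794, many genes would have to reach it together for any to pass.

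Motif strings were counted in the 100 bp round the strongest pair of each control pSTAT3 region. AP-1 strings occurred in 5 of the 43 regions of the 10 genes (11.6%) and in 31.1% of all 37044 control pSTAT3 regions. The STAT string was in 3 of 43 (6.98%, against 3.75%), the TEAD string in 5 (11.6%, against 10.9%) and the C/EBP string in 2 (4.65%, against 2.9%). The REL string GGGANTTTC and the TCF/LEF string TTTGATC were in 0 of 43 (0.556% and 0.84% of all). Strings can overlap each other, and no test was made. The AP-1 strings lay at VEGFA, BCL2L1, MCL1 and IRF1, which had 2 of the 5 regions.

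Other genes give a scale for the 10. Of 29 further genes described as STAT3 targets, 17 (58.6%) had a shared control region, among them MYC with 5, OSMR, a receptor of the IL-6 family, with 4 and NNMT with 3. Their median density in control cells was 7.96 for pSTAT3 and 8.35 for BCL9, beside 9.28 and 12.0 for the 10 genes and 3.0 and 1.93 for all genes. Of 12 acute-phase genes, the liver targets of IL-6 and STAT3, 2 had one (16.7%, SERPINA3 and HP), while HAMP, the third by the naming rule, had 0. Of 20 family relatives of the 10 genes, such as other BCL2 and PIM proteins, 5 had one (25.0%), with 4 regions at EPAS1 and 2 at BCL2A1. The basal epithelial genes exceeded the 10, with 9 shared regions at LAMB3 and 16 at TP63 and medians of 20.9 and 32.5. Counts grow with window length, and the lists were not tested against each other.

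**Figure D5:**
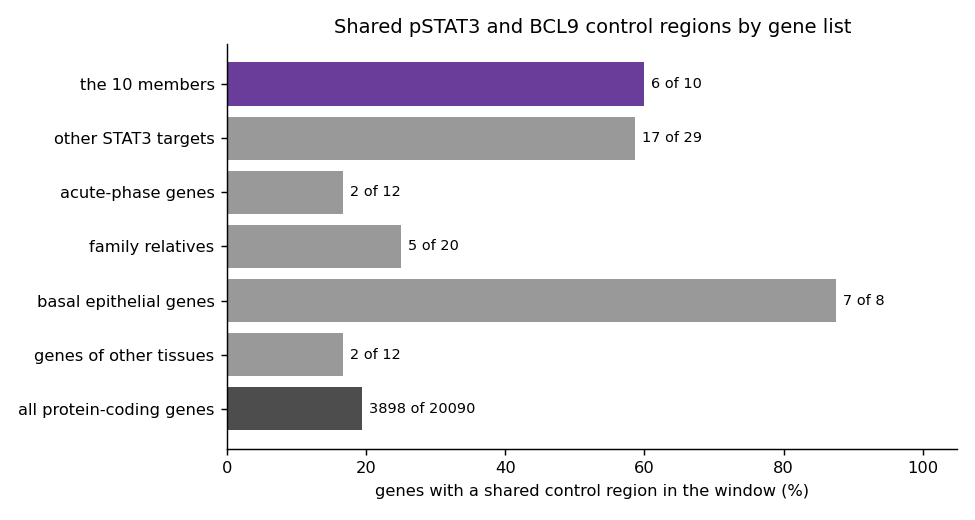
Percentage of genes per list that have a shared pSTAT3 and BCL9 control region in the window (horizontal axis, %), with the counts beside the bars. The 10 genes reach 60.0%, other STAT3 targets 58.6%, basal epithelial genes 87.5% and all protein-coding genes 19.4%.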

How the data were processed

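The authors sequenced ChIP-exo libraries and deposited 1 list of peak pairs per library, with a signal score per pair; per the labels, bcl2fastq was used and the build was hg19, while no aligner is named by labels or study. In every deposited list the signal is a whole number of tags (within 0.01) times a step of that library, whose origin is not stated. The 11 lists were used, and the IgG library was not analysed here.

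Genes are the 20090 protein-coding genes of GENCODE 44 lifted to GRCh37. Regions are merged 100 bp windows round midpoints, present in 2 or more of 3 control libraries or in both knockdown libraries, and they overlap from 1 bp. Conditions were compared by whether libraries overlap and by exact permutation (10 assignments), the antibodies by exact permutation (252) with Benjamini-Hochberg adjustment over all genes. Ranks were compared on a log10 scale. Alternatives were flanks of 5 and 50 kb, equal list length (24728 pairs), at least 9 tags, ranks, and libraries left out. The permutation step was tested on simulated Poisson counts per gene with planted changes. Those counts had no further spread between libraries and no dependence of density on list length, so the check does not cover either.

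The members, the gene lists, motif strings and tests were chosen with earlier results of these data known. Named were the 10 genes, the 3 genes of each other list with most shared control regions, neighbours with a start site in a window, and up to 3 regions per gene by control pSTAT3 rank. A few genes that this rule names are not reported here. The software was scipy 1.17.1, pysam 0.24.0, pandas 2.3.3, numpy 2.4.6 and matplotlib 3.10.9 in Python 3.11.15.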

Additional observations from a re-analysis of the deposited data

How the results depend on the processing

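The number of the 10 genes with a shared control region was 6, and within 1.5 times of it under 12 of 14 settings. It was 3 with regions in 3 of 3 libraries and 2 at equal list length, and 4 to 6 when 1 control library was left out. No gene passed for the antibodies under any of 18 settings, but this is not a sign of stability. In the main setting no exact permutation p can be under 0.00794, so many genes would have to reach it together for any to pass. With the control libraries alone 0.0% of all genes were under 0.05 even unadjusted, and in the replicate block no p can be under 0.0625. Counts of genes with every knockdown library higher or lower than every control library changed with the setting. For pSTAT3, 0 were higher and 1 lower. With 5 kb of flank these were 1 and 0 (12.9% and 5.93% of all genes), and 0 were lower at equal list length (2.06%) or with at least 9 tags (3.62%). By the strongest pair 1 was higher (2.78%), and without the single-run controls 1 was higher (19.4%) and 2 lower (MCL1 and HIF1A, 15.2%). Leaving out 1 library gave 1 to 3 higher (19.4% to 30.6% of all genes) and 1 to 2 lower (12.4% to 15.2%), and groups that do not overlap, as at MCL1, cannot come to overlap in this way. For BCL9, 0 were higher and 0 lower. With 5 kb of flank (16.2%), at equal list length (3.05%) or by the strongest pair (4.04%) 1 was higher, with 50 kb of flank 1 was higher and 1 lower (18.4% and 4.65%), by the strongest pair 1 was lower (3.21%), and without the single-run controls 2 were lower (BCL2L1 and BIRC5, 7.67%). Leaving out 1 library gave 0 to 2 higher (22.0% to 37.7%) and 0 to 2 lower (6.38% to 8.99%).

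Whether library numbers pair the samples is not known from the labels, and they were not taken as pairs in the main comparisons. Correlations of same-numbered pSTAT3 and BCL9 deviations across genes were 0.0402, 0.000784, 0.12, 0.00394 and 0.00394. For control libraries of unlike number they ran from -0.0892 to 0.0377, and such values cannot decide the pairing. With the replicate block, in which only 2 pairs of equal number are compared, 3 genes were higher and 2 lower for pSTAT3 (38.0% and 17.2% of all genes) and 1 higher and 1 lower for BCL9 (40.5% and 11.0%, smallest possible exact p = 0.5), and 0 passed between antibodies (0.0625). Beside the main setting, 371 of 420 single-gene values moved by less than 1 SD of the libraries or, for ranks, kept their direction. This share does not measure stability. Leaving out 1 library, leaving out the single-run controls and the replicate block cannot move a difference by 1 SD. The values that moved (23 for pSTAT3 and 15 for BCL9 between conditions, 11 between antibodies) came from the other flanks, equal list length, at least 9 tags and ranks. Depth in reads is unknown, and between conditions the exact permutation of 2 against 3 libraries cannot go below p = 0.1.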
